A study of Homo sapiens with 12 samples.

Results

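The EGFR family was followed across FaDu cells with and without STING through 10 genes chosen by symbol from the 58288 genes of the deposited table. They were the 3 receptor genes EGFR, ERBB2 and ERBB3, and the 7 ligand genes AREG, EREG, HBEGF, TGFA, BTC, EPGN and NRG1. FaDu is an established human head and neck squamous cell carcinoma (HNSCC) line. Cells were grown in DMEM with 10% FBS. Both lines carried lentiviral Cas9 and a puromycin-selected gRNA, which was Non-targeting gRNA 2 in STING WT cells and STING gRNA 2 in STING KO cells. Each genotype was therefore a single line, and whether it was derived from 1 cell is not given in the sources used here. The 4 groups were unirradiated WT, unirradiated KO, irradiated WT and irradiated KO, with 3 RNA-Seq libraries each and 12 in all. Irradiated cells had received 4 daily fractions of 2 Gy, and the time from the last fraction to RNA collection is not given in the sources used here. Nothing states that the 3 libraries of a group came from separate cultures, so the p-values below measure the spread between libraries, which may be technical.

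EGFR, ERBB2 and ERBB3 are receptor tyrosine kinases that pair with one another when a ligand binds and signal through RAS, RAF and ERK and through PI3K and AKT. Their ligands are made as membrane-anchored precursors and are released by proteases of the ADAM family, and ERK signaling in turn raises the transcripts of its own inhibitors and of several of these ligands. EGFR is abundant in most squamous carcinomas of the head and neck and is the target of cetuximab, and ligand shedding after irradiation has long been studied as a route of EGFR activation.

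Values are transcripts per 1000000 transcripts (TPM), which are scaled by transcript length, so levels of different genes can be compared within a library. The table keeps no read depth, so depth is unknown and no counting interval can be given. Between 14860 and 15292 genes per library had a TPM of at least 1. TMEM173, the gene for STING, lay between 21.1 and 26.1 TPM in the 6 WT libraries and between 5.18 and 7.41 TPM in the 6 KO libraries. Within either arm the KO libraries were all lower (p = 0.1 by an exact permutation test, two-sided, which cannot go lower with 3 libraries against 3). All 8 squamous epithelial markers (KRT5, KRT14, KRT17, KRT6A, TP63, EPCAM, CDH1 and DSG3) were at or above 1 TPM in all 12 libraries, with a summed level of 6425 to 9049 TPM. Of 16 leukocyte, fibroblast and endothelial markers, CD68, CD14, COL1A1, CDH5 and VWF were present at up to 31.1 TPM, and each of the others, among them PTPRC, CD3E, DCN, LUM, PECAM1 and KDR, was at most 0.402 TPM. These are bulk measurements, in which fewer expressing cells and less RNA per cell cannot be told apart.

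Differences were tested with limma on log2(TPM + 1) for 15973 genes that reached a TPM of 1 in 3 libraries or more, in 1 fit to all 12 libraries. A gene was called when its p-value, adjusted by the Benjamini-Hochberg method over all 15973 genes, was under 0.05. Of the 10 genes, 9 passed the filter on low values, and EPGN did not. Log2 fold changes refer to log2(TPM + 1), which understates the change of low genes.

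Among the 9 tested members, the widest ranges were those of HBEGF, AREG and EREG, whose group means spanned 0.86, 0.83 and 0.76 on the log2(TPM + 1) scale. TGFA came next, at 0.44, followed by NRG1 at 0.39 and EGFR at 0.23. The 250 bases before the first RefSeq start site of the 3 most variable genes (GRCh38.p14) are shown. Whether these bases bear on the levels of the genes was not tested. AREG lies on the plus strand (window chr4:74444886-74445135), EREG on the plus strand (chr4:74364895-74365144) and HBEGF on the minus strand (chr5:140346604-140346853), and each window is written 5′ to 3′ on the strand of its gene.
AREG: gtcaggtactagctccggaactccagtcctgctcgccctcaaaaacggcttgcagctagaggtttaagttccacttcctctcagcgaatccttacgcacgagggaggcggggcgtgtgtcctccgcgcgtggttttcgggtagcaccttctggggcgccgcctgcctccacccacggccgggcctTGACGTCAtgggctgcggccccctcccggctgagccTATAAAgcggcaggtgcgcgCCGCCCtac
EREG: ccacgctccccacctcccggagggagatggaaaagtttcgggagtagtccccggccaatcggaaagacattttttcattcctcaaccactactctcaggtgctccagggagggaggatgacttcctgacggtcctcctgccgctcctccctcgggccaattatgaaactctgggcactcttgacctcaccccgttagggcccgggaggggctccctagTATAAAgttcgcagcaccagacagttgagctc
HBEGF: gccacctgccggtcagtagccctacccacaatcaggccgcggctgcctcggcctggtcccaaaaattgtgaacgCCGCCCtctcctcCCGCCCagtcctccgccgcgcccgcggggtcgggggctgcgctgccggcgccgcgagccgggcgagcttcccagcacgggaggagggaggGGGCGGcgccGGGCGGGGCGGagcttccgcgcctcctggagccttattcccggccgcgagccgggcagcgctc
Capitals mark 4 motifs searched on both strands: the TATA box TATAAA, the cAMP response element TGACGTCA, the AP-1 site TGANTCA and the GC box GGGCGG. AREG held TATAAA beginning 29 bases before the start, TGACGTCA beginning 65 bases before it, and a GC box on the opposite strand. EREG held only TATAAA, beginning 32 bases before the start, and HBEGF held 5 GC boxes, 2 of which share 1 base, and no other motif of the 4. Among 35114 RefSeq windows of the same length, 10.7% held TATAAA, 1.65% TGACGTCA, 6.57% TGANTCA and 42.6% GGGCGG. The GC content of the windows was 65.2% for AREG, 58% for EREG and 76.4% for HBEGF. Of the other ligands, EPGN held TATAAA beginning 29 bases before its start, the first start of TGFA had 3 GC boxes, and BTC had none of the 4 motifs. For NRG1 no window is described here.

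EGFR (ENSG00000146648.17; GRCh38 chromosome 7, 55019021 to 55211628, plus strand) was the most abundant member in 3 of the 4 groups. It reached 214.5, 190.5 and 214.3 TPM in the unirradiated WT libraries and 192.2, 199.7 and 197.7 TPM in their KO counterparts. Irradiated WT libraries had 178.2, 177.9 and 172.1 TPM, and irradiated KO libraries 180.9, 180.6 and 180.0 TPM. The WT and KO libraries overlapped without radiation, whereas both irradiated groups lay below their unirradiated counterparts.

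EGFR fell after radiation in WT cells by 0.23 on the log2 scale (SE 0.048, limma adjusted p = 0.032), or 14.7% of the mean TPM. In KO cells the log2 fold change was -0.12 (SE 0.048, limma adjusted p = 0.21), and the difference between the radiation effects was 0.10 (95% interval -0.05 to 0.26), so the effects were not shown to differ. The call in WT cells was lost without unirradiated WT replicate 1 or 3, unirradiated KO replicate 3 or any of the irradiated WT replicates (limma adjusted p = 0.052 to 0.10), when only the 6 WT libraries were fitted (0.15) and without a mean-variance trend (0.064). Between KO and WT cells the log2 fold change of EGFR was -0.07 (SE 0.048, limma adjusted p = 0.58) without radiation and 0.04 (limma adjusted p = 0.76) after it. EGFR-AS1, on the opposite strand, was at most 0.114 TPM.

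ERBB2 (ENSG00000141736.13; chromosome 17, 39687914 to 39730426, plus strand), the receptor that has no ligand of its own and pairs with the others, ranged from 50.7 to 60.4 TPM over the 12 libraries. All KO libraries were below all WT libraries in each arm, at 55.0, 56.2 and 56.7 against 59.8, 58.6 and 60.4 TPM unirradiated and 55.3, 50.7 and 50.9 against 56.7, 59.3 and 55.6 TPM irradiated. The log2 fold changes of -0.09 and -0.13 did not pass the test (SE 0.047, limma adjusted p = 0.44 and 0.19). ERBB2 overlaps PGAP3 and MIEN1 on the opposite strand, at up to 14.7 and 30.7 TPM, and the strand setting of the quantification is not given in the sources used here. ERBB3 (ENSG00000065361.14; chromosome 12, 56076799 to 56103505, plus strand), whose kinase is weak and which binds neuregulins, ranged from 32.4 to 42.6 TPM. Its unirradiated KO libraries, at 38.2, 40.8 and 41.8 TPM, lay above the unirradiated WT libraries, at 36.7, 36.2 and 32.4 TPM, which is 0.19 on the log2 scale (SE 0.069, limma adjusted p = 0.23).

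**Figure D1:**
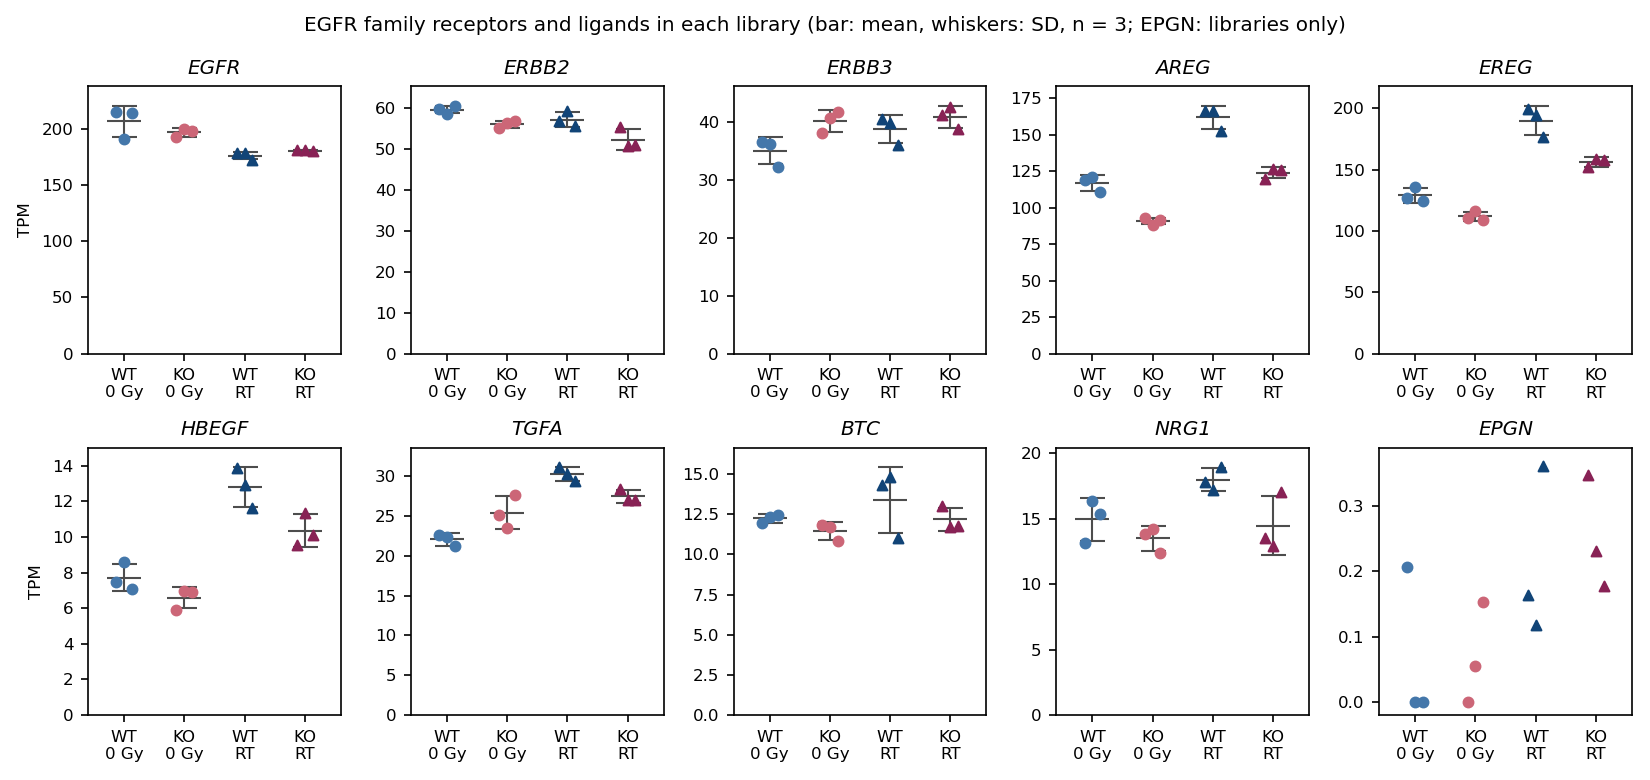
TPM of the 10 genes in each library, 1 panel per gene with its own vertical axis, for STING WT and STING KO cells without radiation (0 Gy) or after 4 daily fractions of 2 Gy (RT). Points are libraries, bars are means and whiskers SD (n = 3), which are not drawn for EPGN since it is listed at 0 in some libraries. For AREG and EREG the irradiated libraries lie above the unirradiated libraries of the same genotype and the KO libraries lie below the WT libraries of the same arm.

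AREG (ENSG00000109321.10; chromosome 4, 74445134 to 74455009, plus strand) encodes amphiregulin, a ligand of EGFR and itself an ERK-responsive gene. Its TPM was 118.7, 121.2 and 110.8 in unirradiated WT libraries and 92.6, 88.3 and 91.4 in unirradiated KO libraries. Irradiated WT libraries had a TPM of 166.6, 166.5 and 152.7, and irradiated KO libraries of 119.6, 126.8 and 125.8. No library of one group overlapped with the opposite group in any of the 4 pairwise comparisons, and the irradiated KO libraries covered part of the range of the unirradiated WT libraries.

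AREG was lower in KO cells in both arms. The log2 fold change was -0.36 (SE 0.052, limma adjusted p = 0.0048) without radiation, a change of -22.3% in the mean TPM. After radiation it was -0.38 (SE 0.052, limma adjusted p = 0.0024), a change of -23.4%. Radiation raised AREG by 0.47 on the log2 scale in WT cells (limma adjusted p = 0.0011), or 38.5% of the mean TPM, and by 0.45 in KO cells (limma adjusted p = 0.0014), or 36.7%. The difference between the radiation effects was -0.02 (95% interval -0.18 to 0.14). Of all the alternatives run, a fit to only the 6 unirradiated libraries lost the KO call in unirradiated cells (limma adjusted p = 0.055), and none lost another AREG call.

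EREG (ENSG00000124882.3; chromosome 4, 74365143 to 74388751, plus strand) encodes epiregulin, which binds EGFR and ERBB4. It measured 126.6, 136.3 and 124.3 TPM in unirradiated WT libraries and 110.3, 116.1 and 109.2 TPM in unirradiated KO libraries. After radiation the values were 199.4, 194.5 and 176.4 TPM in WT and 151.8, 158.7 and 158.1 TPM in KO libraries. As for AREG, the groups did not overlap in any of the 4 pairwise comparisons.

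Radiation raised EREG by 0.55 on the log2 scale in WT cells (SE 0.056, limma adjusted p = 6.7e-04) and by 0.48 in KO cells (SE 0.056, limma adjusted p = 0.0015), which were 47.2% and 39.6% of the mean TPM. The difference between these effects was -0.08 (95% interval -0.25 to 0.10). In irradiated cells EREG was lower in KO, at -0.28 on the log2 scale (SE 0.056, limma adjusted p = 0.022). That call was lost without irradiated WT replicate 1 or 2 or any of the irradiated KO replicates (limma adjusted p = 0.056 to 0.091), and with only the 6 irradiated libraries in the fit (0.095). In unirradiated cells the log2 fold change was -0.20 (SE 0.056, limma adjusted p = 0.12), short of the threshold although the KO libraries were all lower.

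HBEGF (ENSG00000113070.7; chromosome 5, 140332843 to 140346631, minus strand) encodes heparin-binding EGF-like growth factor. Its TPM was 7.49, 8.58 and 7.08 in unirradiated WT, 5.89, 6.97 and 6.93 in unirradiated KO, 13.9, 12.9 and 11.6 in irradiated WT and 9.57, 11.4 and 10.1 in irradiated KO libraries. Its mean level was the lowest among the tested members in all 4 groups, and it had the largest relative change with radiation. The log2 fold change with radiation was 0.66 in WT cells (SE 0.10, limma adjusted p = 0.0064) and 0.58 in KO cells (SE 0.10, limma adjusted p = 0.013), or 65.8% and 57.0% of the mean TPM. The call in KO cells was lost when only the 6 KO libraries were fitted (limma adjusted p = 0.064). The KO libraries lay below the WT libraries in both arms, with log2 fold changes of -0.20 (limma adjusted p = 0.41) and -0.28 (limma adjusted p = 0.17) that did not pass the test.

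TGFA (ENSG00000163235.15; chromosome 2, 70447280 to 70554193, minus strand) encodes transforming growth factor alpha, a ligand of EGFR alone. It stood at 22.6, 22.4 and 21.2 TPM in unirradiated WT and 25.2, 23.4 and 27.6 TPM in unirradiated KO libraries. Irradiated WT libraries held 31.1, 30.3 and 29.3 TPM, and irradiated KO libraries 28.4, 26.9 and 27.0 TPM. The KO libraries were all above the WT libraries without radiation and all below them after it.

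TGFA rose with radiation in WT cells by 0.44 on the log2 scale (SE 0.063, limma adjusted p = 0.0051), or 37.0% of the mean TPM. In KO cells the log2 fold change was 0.11 (SE 0.063, limma adjusted p = 0.40), or 8.17%, and the unirradiated and irradiated libraries overlapped. The KO against WT log2 fold changes were 0.19 (limma adjusted p = 0.19) and -0.13 (limma adjusted p = 0.31). The difference between the radiation effects was -0.33 (SE 0.089, 95% interval -0.52 to -0.13, limma adjusted p = 0.62), which did not pass the test over all genes.

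BTC and NRG1 were not called in any comparison. BTC (ENSG00000174808.11; chromosome 4, 74744759 to 74794686, minus strand), the gene for betacellulin, ranged from 10.8 to 14.8 TPM, with log2 fold changes between -0.12 and 0.11. NRG1 (ENSG00000157168.18; chromosome 8, 31639386 to 32767959, plus strand), the gene for neuregulin 1, a ligand of ERBB3 and ERBB4, was 17.8, 17.2 and 18.9 TPM in irradiated WT libraries, above all other libraries. The other NRG1 groups read 13.1, 16.3 and 15.3 TPM in unirradiated WT, 13.8, 14.2 and 12.4 TPM in unirradiated KO and 13.5, 12.9 and 17.01 TPM in irradiated KO. Its log2 fold changes were 0.26 with radiation in WT cells (SE 0.11, limma adjusted p = 0.25) and -0.30 for KO against WT after radiation (limma adjusted p = 0.18). EPGN (ENSG00000182585.9; chromosome 4, 74308473 to 74315307, plus strand), the gene for epigen, was listed at 0 in 2 unirradiated WT libraries and 1 unirradiated KO library and reached at most 0.36 TPM, and was not tested.

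**Figure D2:**
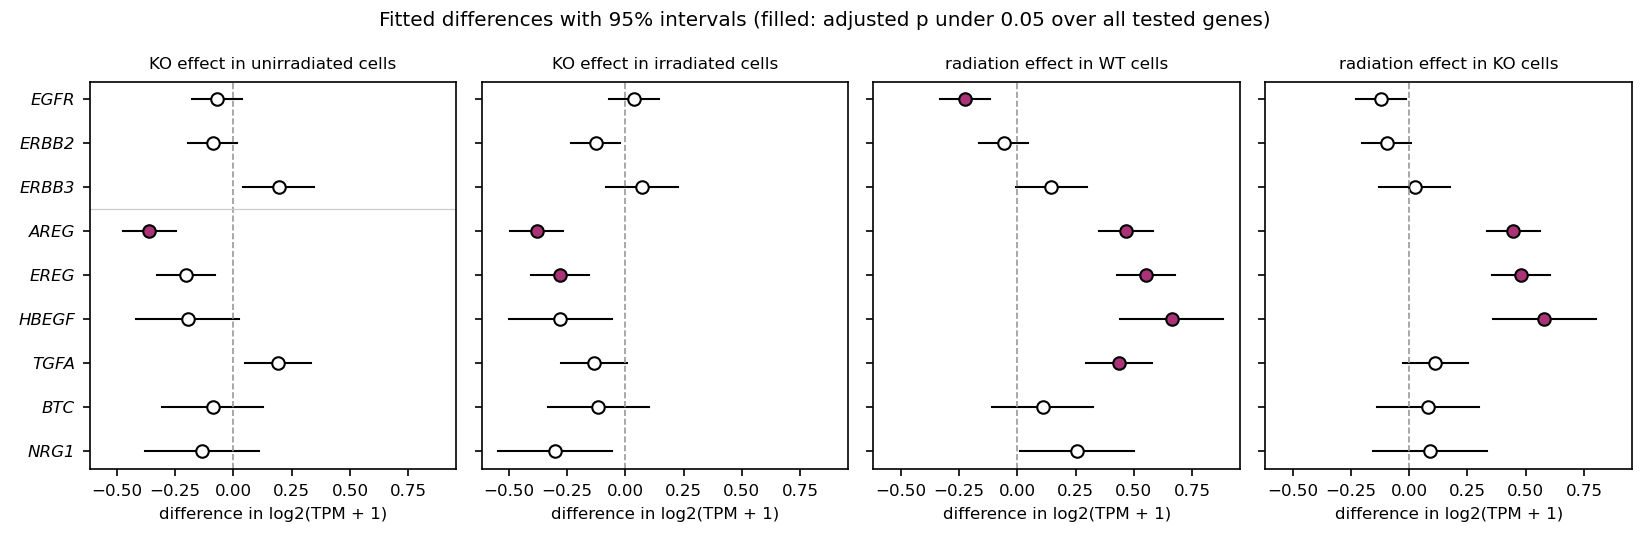
Fitted differences in log2(TPM + 1) with 95% intervals for the 9 tested genes in the 4 pairwise comparisons, KO minus WT in the 2 panels on the left and irradiated minus unirradiated in the 2 on the right. Filled points passed an adjusted p of 0.05 over all 15973 genes: AREG in all 4 panels, EREG in 3, HBEGF in both radiation panels, and TGFA and EGFR for radiation in WT cells alone.

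Counted over the family, 1 of the 9 tested members was called in KO against WT without radiation, AREG, which was lower, against 1.73% of all 15973 genes called and 1.26% called lower. After radiation 2 of 9 were called, AREG and EREG, both lower, against 3.59% of all genes called and 2.66% called lower. With radiation in WT cells 5 of 9 were called, the 4 ligands AREG, EREG, HBEGF and TGFA higher and EGFR lower, against 3.74% of all genes, 2.24% higher and 1.5% lower. In KO cells 3 of 9 were called, AREG, EREG and HBEGF, all higher, against 3.69% of all genes and 2.0% higher. No member was called for the difference between the radiation effects, against 0.0188% of all genes, and 1 of 9, TGFA, had an unadjusted p under 0.05 in limma, against 1056 of the 15973 genes.

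The libraries of the groups compared did not overlap for 7 of the 9 members in KO against WT without radiation, where this held for 20.6% of all genes. After radiation they did not overlap for 7 of 9, against 24.1% of all genes. With radiation in WT cells they did not overlap for 6 of 9 members, against 24.8%, and in KO cells for 4 of 9, against 24.3%. The 2 KO comparisons share no libraries with each other, but both set the same KO line against the same WT line. Each also shares libraries with both radiation comparisons.

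The 6 tested ligands had a median log2 fold change of -0.17 in KO against WT cells without radiation and -0.28 after it, beside medians of -0.02 for all tested genes in both. With radiation the ligand median was 0.45 in WT and 0.28 in KO cells, beside 0.02 for all tested genes in both. The 3 receptors had medians of -0.07, 0.04, -0.06 and -0.10 in the same 4 comparisons.

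By level, the order in unirradiated WT cells was EGFR, EREG, AREG, ERBB2, ERBB3, TGFA, NRG1, BTC, HBEGF and EPGN, and no neighbors in it overlapped between libraries. The same order held in unirradiated and irradiated KO cells, with NRG1 and BTC overlapping in the latter. In irradiated WT cells EREG, at 190 TPM on average, stood before EGFR, at 176 TPM, with overlapping libraries, and BTC and HBEGF overlapped too. Summed over the 7 ligands, the level was 303 ± 13.1 TPM in unirradiated WT, 259.6 ± 1.07 TPM in unirradiated KO, 427 ± 23.0 TPM in irradiated WT and 345 ± 7.63 TPM in irradiated KO libraries (SD, n = 3 each). The ligand sums of the 4 groups did not overlap. The 3 receptors summed to 301.1 ± 13.9, 293 ± 6.41, 272 ± 7.24 and 274 ± 3.94 TPM in the same order of groups.

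The ratio of the ligand sum to the receptor sum was thus 1.01 in WT and 0.887 in KO without radiation, and 1.57 and 1.26 after it, as means over 3 libraries. AREG and EREG together made up 81.2%, 78.1%, 82.5% and 81.2% of the ligand sum in these groups. The share of AREG alone was 38.58%, 34.96%, 37.97% and 35.96%, and its libraries were lower in KO than in WT in both arms. TGFA held 7.29% of the ligand sum in WT against 9.78% in KO without radiation, and 7.09% against 7.96% after it. EREG exceeded AREG 1.10-fold in unirradiated WT and 1.23-fold in unirradiated KO, and 1.17-fold and 1.26-fold after radiation. These sums and shares were not tested. With EGF, NRG2, NRG3 and NRG4 counted too, AREG and EREG held 76.8%, 71.8%, 80.1% and 77.5%.

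**Figure D3:**
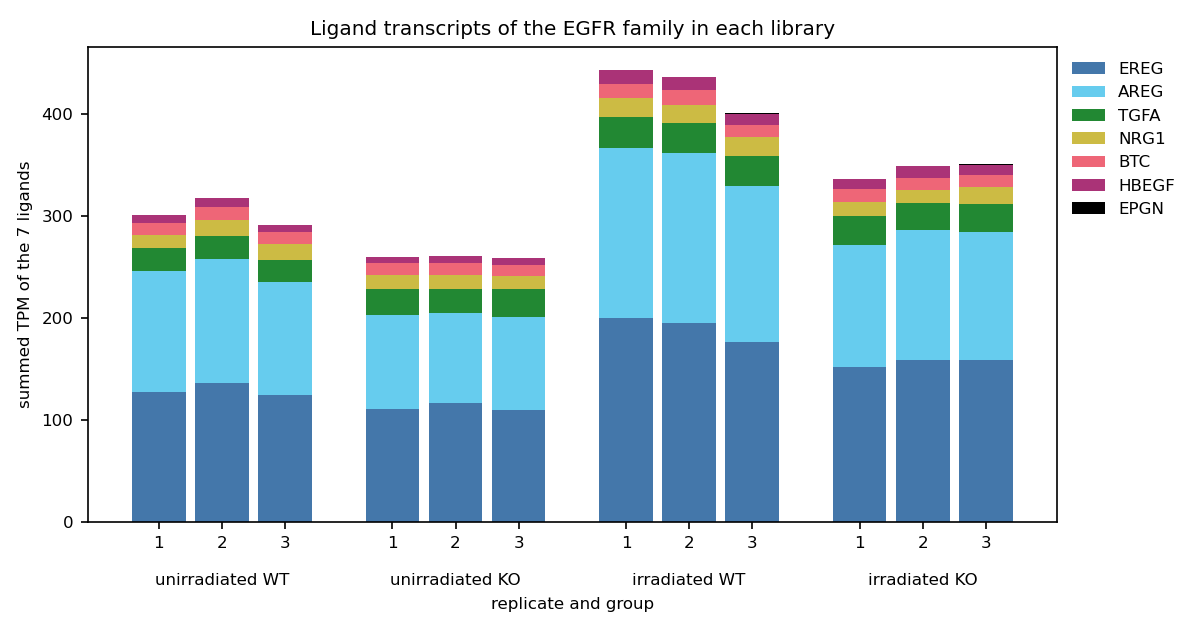
Summed TPM of the 7 ligand transcripts in each of the 12 libraries, with 1 bar per library, stacked by gene and grouped by genotype and radiation. AREG and EREG make up most of every bar, and the 3 irradiated WT bars, between 400.3 and 443 TPM, are above all others.

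Ligand genes EPGN, EREG, AREG and BTC lie together on chromosome 4 within 486.2 kb that hold 6 genes of the annotation. The end of EREG is 56.4 kb from the start of AREG. EREG and AREG, the pair in the middle, were each at or above 88.3 TPM in every library, whereas EPGN was at most 0.36 TPM and BTC at most 14.8 TPM. The antisense genes AC021180.1 and AC239584.1 of the interval were listed at 0 in all 12 libraries. Of the 3 genes of the interval that were tested, AREG and EREG were called in both radiation comparisons and BTC in neither, with log2 fold changes of 0.11 and 0.08 for BTC.

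**Figure D4:**
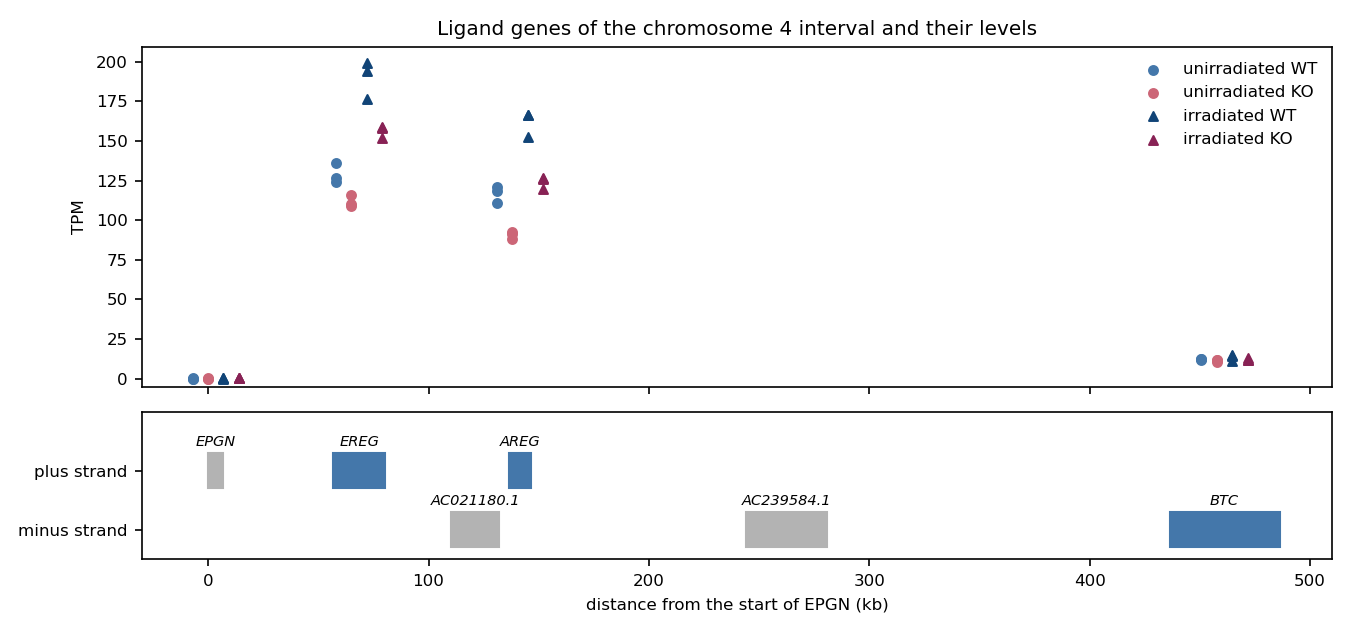
TPM of the 4 ligand genes of the chromosome 4 interval in each library (top, drawn at the position of the gene with a small offset for each group) above the annotated genes (bottom, blue if tested, grey if below the filter), by distance in kb from the start of EPGN. EREG and AREG show the high levels and the spread between groups, while EPGN and BTC stay near the axis.

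None of the other family genes was called. ERBB4, the remaining receptor, was between 0.03 and 0.34 TPM and NRG3 at most 0.01 TPM, so neither was tested. EGF ranged from 0.19 to 1.35 TPM and NRG2 from 0.69 to 1.96 TPM. NRG4, a ligand of ERBB4, was 14.1, 18.8 and 13.7 TPM in unirradiated WT, 23.3, 17.1 and 21.997 TPM in unirradiated KO, 11.7, 9.64 and 9.51 TPM in irradiated WT and 14.01, 14.6 and 16.1 TPM in irradiated KO libraries. Its irradiated libraries were below the unirradiated ones of the same genotype and its KO libraries above the WT ones after radiation, opposite in sign to AREG and EREG. None of its log2 fold changes passed the test, with 0.40 and 0.50 for KO against WT and -0.55 and -0.44 for radiation (SE 0.14, limma adjusted p = 0.23, 0.093, 0.067 and 0.12).

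Genes around the receptors were read from lists compiled from general knowledge: 12 for ligand shedding, 32 adaptors and effectors, 27 feedback genes and inhibitors, and 25 ERK-responsive transcripts. With the 5 other family genes they made 101 genes, of which 97 were tested. In KO against WT cells without radiation 3 of the 97 were called, all lower, and after radiation 12, all lower. With radiation in WT cells 18 were called higher and 1 lower, and in KO cells 14 higher and 2 lower. For the difference between the radiation effects none was called in limma, and 8 of the 97 had an unadjusted p under 0.05, against 1056 of the 15973 genes. The shares of all genes called are those given above for the same comparisons.

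Among the lists, ERK-responsive transcripts had the most called genes in both KO comparisons. The 24 tested had a median log2 fold change of -0.25 without radiation and -0.37 after it, and 3 and 8 of them were called, all lower. Of the 24, 4 had a positive log2 fold change without radiation, among them EGR1 (0.09) and IER3 (0.07), and 2 after it. ERK activity itself was not tested. PLAUR, the urokinase receptor, was lower in KO by a log2 fold change of -0.79 without radiation (limma adjusted p = 0.011) and -0.93 after it (limma adjusted p = 0.0027), from 10.6 ± 1.82 to 5.67 ± 0.225 TPM and from 16.5 ± 2.03 to 8.18 ± 1.07 TPM (SD, n = 3). LIF, a cytokine of the interleukin-6 family, was lower in KO by -0.36 on the log2 scale without radiation (limma adjusted p = 0.0048). Its mean was also lower in KO after radiation, at 42.8 against 55.1 TPM. With only the 6 unirradiated libraries in the fit the calls of PLAUR and LIF in unirradiated cells were lost (limma adjusted p = 0.068 and 0.064), and that of PLAUR also without unirradiated KO replicate 2 (0.0519). UPP1, uridine phosphorylase 1, was lower after radiation, at -0.59 (limma adjusted p = 0.014, 0.061 without irradiated WT replicate 2 and 0.11 with only the 6 irradiated libraries). Among the other lists, 2 shedding genes were called lower in irradiated KO cells, RHBDF2, which escorts the sheddase ADAM17, at -0.60 (limma adjusted p = 0.011), and TIMP3, an inhibitor of that sheddase, at -0.53 (limma adjusted p = 0.047, lost in 16 of 19 alternatives). The 2 called feedback genes were DUSP1, a phosphatase of MAP kinases, at -0.55 (limma adjusted p = 0.0077, and 0.079 with only the 6 irradiated libraries), and SPRY2, a Sprouty inhibitor, at -0.35 (limma adjusted p = 0.023, lost in 6 of 20 alternatives). Without radiation the log2 fold changes of UPP1, RHBDF2 and TIMP3 were -0.31, -0.35 and -0.52 (limma adjusted p = 0.21, 0.15 and 0.075). Those of DUSP1 and SPRY2 were -0.01 and 0.02 (limma adjusted p = 0.96 and 0.93), and none of these genes was called in unirradiated cells. The 26 tested feedback genes had KO medians of -0.04 without radiation and -0.07 after it, with 11 positive and 15 negative in each arm. None of the 32 adaptors and effectors was called by limma in either KO comparison, and 1 and 2 of them had an unadjusted p under 0.05, against 2292 and 2855 of the 15973 genes.

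With radiation in WT cells 7 of 26 tested feedback genes were called higher and 1 lower (median log2 fold change 0.19), and 9 of 24 ERK-responsive transcripts were called higher and none lower (median 0.34). In KO cells the counts were 7 higher and 1 lower (median 0.20) and 6 higher and 1 lower (median 0.33). LIF rose by 1.19 on the log2(TPM + 1) scale in WT cells (limma adjusted p = 2.5e-06) and 1.20 in KO cells (limma adjusted p = 2.4e-06), from 23.5 ± 0.684 to 55.1 ± 1.63 TPM and from 18.1 ± 0.256 to 42.8 ± 2.19 TPM (SD, n = 3). In WT cells DUSP1 rose by 1.00 (limma adjusted p = 3.1e-04), SPRY4, another Sprouty inhibitor, by 0.96 (limma adjusted p = 0.0035) from 0.629 to 2.18 TPM, and DUSP6, a phosphatase of ERK, by 0.93 (limma adjusted p = 0.0055). With only the 6 WT libraries in the fit the calls of SPRY4 and DUSP6 were lost (limma adjusted p = 0.052 and 0.054). PTPRK, a receptor-type tyrosine phosphatase, fell by 0.42 (limma adjusted p = 0.024), a call lost without any of the unirradiated WT replicates or irradiated WT replicate 2 or 3 (limma adjusted p = 0.062 to 0.082).

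In KO cells SPRY4 rose by 0.79 (limma adjusted p = 0.011, and 0.053 with only the 6 KO libraries), DUSP5, a nuclear phosphatase of ERK, by 0.76 (limma adjusted p = 7.9e-04) and EGR3, an immediate early transcription factor, by 0.67 (limma adjusted p = 0.0035). CBLC, a ubiquitin ligase of the CBL family, and JUNB, an AP-1 subunit, each fell by 0.38 (limma adjusted p = 0.0071 and 0.0022). The mean TPM of DUSP5 and EGR3 also rose in WT cells, from 24.5 to 46.2 and from 5.31 to 8.31. Those of DUSP1 and DUSP6 also rose in KO cells, from 7.56 to 10.9 and from 5.96 to 10.1. The mean TPM of CBLC and JUNB also fell in WT cells, from 46.7 to 40.1 and from 147.4 to 133.3. That of PTPRK also fell in KO cells, from 90.4 to 73.3. None of these genes was called for the difference between the radiation effects. Of the 12 shedding genes, 2 were called higher in WT cells, ADAM12, a sheddase, at 0.80 (limma adjusted p = 0.013) and TIMP3 at 0.52 (limma adjusted p = 0.04998), and limma called none in KO cells, where 3 had an unadjusted p under 0.05, against 2896 of the 15973 genes. Over the whole list, 4 had a positive and 8 a negative log2 fold change with radiation in WT cells (median -0.09). In KO cells 3 were positive and 9 negative (median -0.05). ADAM12 averaged 1.21 TPM in unirradiated and 2.89 TPM in irradiated WT libraries, and 1.19 and 1.92 TPM in the KO libraries. TIMP3 averaged 4.23 and 6.46 TPM in WT and 2.62 and 4.17 TPM in KO libraries, so its mean rose in both lines. The ADAM12 call was lost without unirradiated WT replicate 1 or irradiated WT replicate 1 or 3 (limma adjusted p = 0.052 to 0.053) and with only the 6 WT libraries (0.095), and that of TIMP3 in 17 of 19 alternatives. None of the 32 adaptors and effectors was called in WT cells, where 4 had an unadjusted p under 0.05 in limma, against 2910 of the 15973 genes. In KO cells SRC, a tyrosine kinase, was called at 0.17 (limma adjusted p = 0.048, lost in 17 of 20 alternatives).

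**Figure D5:**
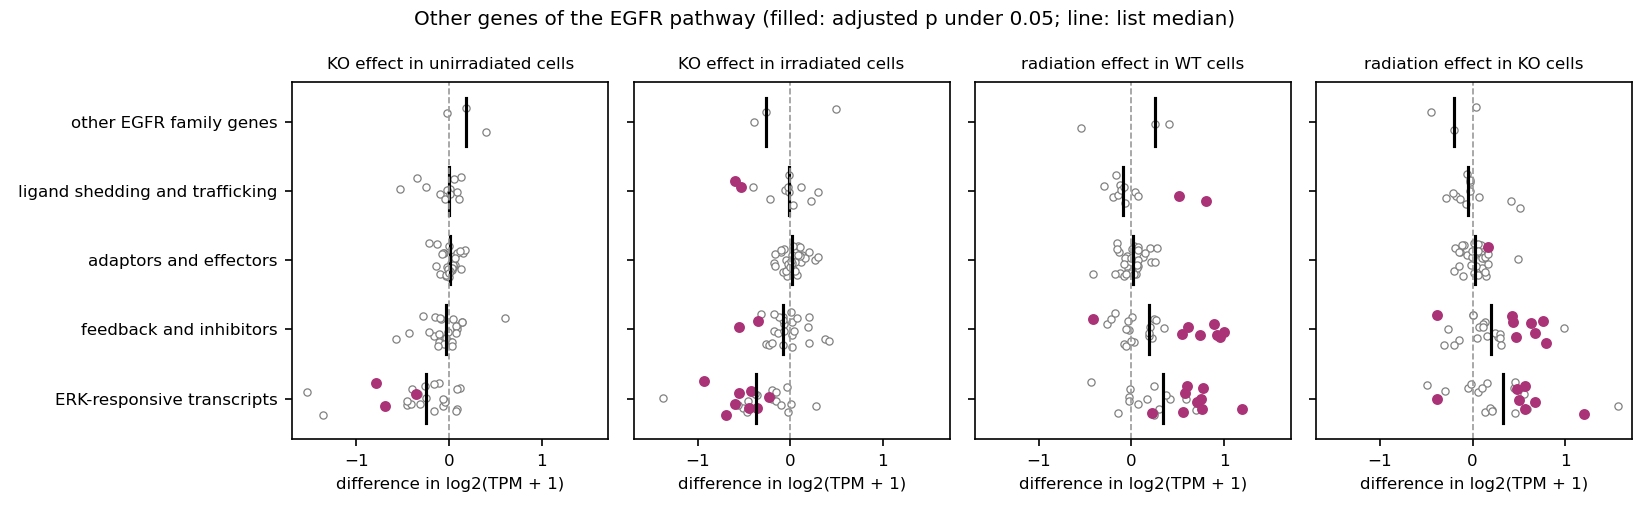
Fitted differences in log2(TPM + 1) for the 97 tested genes of the 5 pathway lists in the 4 pairwise comparisons, 1 point per gene, filled where the adjusted p over all 15973 genes was under 0.05, with a vertical line at the median of each list. The ERK-responsive transcripts lie mostly left of 0 in both KO panels (medians -0.25 and -0.37) and mostly right of it in both radiation panels (medians 0.34 and 0.33), while the adaptors and effectors cluster around 0.

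Some markers of other cell types moved with radiation as well. The 4 endothelial markers summed to 11.5 to 15.9 TPM in unirradiated and 18.3 to 23.9 TPM in irradiated libraries, of which CDH5 made up most, while PECAM1 and KDR were at most 0.0989 and 0.0126 TPM. The 6 leukocyte markers summed to 18.9 to 25.3 TPM in unirradiated WT, 18.9 to 28.4 TPM in unirradiated KO, 27.8 to 34.4 TPM in irradiated WT and 20.6 to 28.1 TPM in irradiated KO libraries, most of it CD68, and PTPRC was at most 0.0894 TPM. The 6 fibroblast markers lay between 6.40 and 9.36 TPM throughout, with LUM at 0 in all libraries.

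Among all other tested genes, those with the most similar profile over the 12 libraries were found by the root mean square difference between centered log2(TPM + 1) values, for the 3 members that varied most. For HBEGF these were EREG (0.083), TNFAIP3 (0.091) and ITGA2 (0.099). For AREG they were OVOL1 (0.074), TGFB1 (0.081) and EREG (0.082), and for EREG they were OVOL1 (0.080), AREG (0.082) and HBEGF (0.083). Each of the 3 ligands was thus among the nearest profiles of at least 1 of the others. OVOL1, an epithelial transcription factor, averaged 4.36 TPM in unirradiated WT, 3.56 TPM in unirradiated KO, 6.49 TPM in irradiated WT and 5.05 TPM in irradiated KO cells. TGFB1, the gene for transforming growth factor beta 1, averaged 46.2, 36.9, 64.3 and 48.7 TPM in the same order. These profiles share libraries, and the likeness is a description with no test.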

How the data were processed

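RNA-Seq was measured in 12 FaDu libraries, and the authors deposited 1 table of TPM per gene and library, from poly(A) RNA and paired-end reads. The submitters' processing notes name HISAT2, StringTie and hg38, and their settings, the annotation and the strand setting are not given in the sources used here. TPM sums to 1000000 per library and keeps no depth, so error was read only from how far libraries of 1 group differ. Groups came from the labels. The columns are named for lines: NT2 was read as Non-targeting gRNA 2 (WT) and the remaining line as KO, where TMEM173 was lower. All columns were used.

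TPM was tested as log2(TPM + 1) with limma (version 3.58.1, under R 4.3.3), using a linear model of 4 group means, 5 contrasts and an empirical Bayes step with a mean-variance trend (8 residual degrees of freedom). Genes needed a TPM of at least 1 in 3 libraries, with Benjamini-Hochberg adjustment over all tested genes. The code was tested on simulated data. Of 58288 identifiers, 57980 matched GENCODE release 29 (GRCh38) without the version. Start site windows came from RefSeq (GRCh38.p14).

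Members, lists and tests were chosen with earlier results of these data known. Named were the members, TMEM173, other family genes, called pathway genes (all if 8 or fewer, otherwise the 4 largest in each direction) and the 3 profiles most like each of the 3 most variable members. The values of 1 called pathway gene are not reported here. DUSP1 and SPRY2 in irradiated KO cells, TIMP3, ADAM12, SRC and the antisense genes were named after their values were seen. Alternatives were a pseudocount of 0.1, no filter, median-of-ratios factors, a filter on a mean TPM of 5, quantile normalization, no trend, a replicate block, only the 6 libraries compared and leaving out each library.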

Additional observations from a re-analysis of the deposited data

Results flagged for a closer look

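TGFA drew attention because its KO libraries were all above the WT libraries without radiation (23.4 to 27.6 against 21.2 to 22.6 TPM) and all below them after radiation (26.9 to 28.4 against 29.3 to 31.1 TPM). The radiation effect in KO cells minus that in WT cells was -0.33 on the log2(TPM + 1) scale (SE 0.089, 95% interval -0.52 to -0.13), and limma gave an unadjusted p of 0.0044 and an adjusted p of 0.62 over all 15973 genes, so the difference did not pass the correction. Over the alternatives the adjusted p lay between 0.57 and 0.83, and the difference between -0.38 and -0.27.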

How the results depend on the processing

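Of 891 refits of the members under the alternatives, 864 kept their direction and their side of the threshold, 17 lost a call and 10 turned in sign, all of these for uncalled values. The reversals were AREG for the difference between the radiation effects (-0.061 to 0.018 when leaving out a library, above 0 in 4 refits), BTC for the same difference (-0.15 to 0.046, above 0 in 2), ERBB3 with radiation in KO cells (-0.0055 with median-of-ratios factors, and -0.013 to 0.061 when leaving out a library) and NRG1 with radiation in KO cells (-0.027 to 0.16 when leaving out a library). Of 595 refits of TMEM173, NRG4 and called pathway genes, 519 were unchanged in this sense, 76 lost a call and none turned. With only the 6 libraries compared, 103 genes were called for KO in unirradiated and 252 in irradiated cells, 166 for radiation in WT and 195 in KO cells, and the called members fell to 0 and 1 in the 2 KO comparisons. Fewer libraries in the fit leave fewer residual degrees of freedom. With each library left out in turn the counts ranged from 172 to 292, 313 to 542, 242 to 526 and 268 to 553 in the same order, and from 1 to 9 for the difference between the radiation effects, where 3 genes were called with all libraries, 7 with no filter and 1 without a trend. Members called after leaving out a library numbered 1 to 2 for KO in irradiated cells. Same-numbered libraries did not deviate together (correlations of their deviations -0.06 to 0.064), so the numbers were not taken to pair libraries. The replicate block called 211, 378, 315, 359 and 1 genes in the 5 comparisons, against 276, 573, 597, 590 and 3 without it, and lost the EGFR call (limma adjusted p = 0.071). Median-of-ratios factors moved the balance of higher and lower calls, from 74 and 202 to 115 and 191 for KO in unirradiated cells, from 357 and 240 to 300 and 306 for radiation in WT cells, and from 319 and 271 to 273 and 382 in KO cells. Quantile normalization moved that for KO in irradiated cells from 148 and 425 to 203 and 364. The missing depth prevents any counting error for low genes such as EPGN.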
